A study of Mus musculus with 6 samples.

Results

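U2, U4, U5 and U6 are the small nuclear RNAs (snRNAs) that join U1 in the major spliceosome. Their RNA contacts were examined in 4 MARIO libraries of mouse cells. Every read pair in which at least 1 end was annotated as an snRNA and carried the name U2, U4, U5 or U6 was taken, after read pairs with equal coordinates and strands at both ends had been counted once. These 4 RNAs were an end of 45270 of the 5581375 read pairs in all.

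In MARIO, RNAs are crosslinked to the proteins that hold them, the complexes are bound to beads, and RNAs held by the same protein are ligated through a biotinylated linker, so that each sequenced molecule reads RNA1, linker, RNA2. ES-1 and ES-2 came from E14 mouse embryonic stem (ES) cells of strain 129/Ola, grown on gelatin without feeder cells, crosslinked by ultraviolet light at 254 nm and treated with RNase I to fragments of about 1000 nt (ES-2) or about 1000 to 2000 nt (ES-1, about 1000 nt by its label). Ribosomal RNA had been depleted by duplex-specific nuclease for ES-1 but by the GeneRead kit for ES-2. ES indirect came from the same cells, crosslinked by formaldehyde and EGS, which also link proteins to each other, and was sonicated to about 1000 nt with ribosomal RNA removed by the nuclease, while MEF came from C57Bl/6 mouse embryonic fibroblasts with ultraviolet crosslinking, RNase I fragments of about 300 nt and the GeneRead kit. The labels name no engineered change in any of them. ES indirect and MEF are 1 library each and the ES pair differed in ribosomal RNA removal and fragment size, so no difference between groups was tested. Crosslinker, fragmentation and library cannot be told apart in any difference between ES indirect and the other ES libraries.

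In each round of splicing, U6 arrives base paired with U4, in one particle with U5. U2 pairs with the branch point of the intron, U5 holds the exon ends, and U6 is released from U4, pairs with U2 and takes over the 5′ splice site from U1. The 4 RNAs are themselves modified at sites chosen by base pairing with small nucleolar RNAs (snoRNAs) and Cajal body RNAs, where C/D guides direct methylation of the ribose and H/ACA guides direct pseudouridine.

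The sequences shown for the contacts below are those of U4 and of a pair of C/D snoRNAs, which pair with U6. They were read 5′ to 3′ from the mm9 genome. The copy of U4 at chr5:115939468-115939608 on the plus strand, 141 nt, took more U4 ends than any other copy. Bases of U6 are counted from its 5′ end. Capitals in U4 mark the 2 longest of the 4 helices that RNAcofold predicted with U6, which formed 13 base pairs between bases 3 to 16 of U4 and 59 to 72 of U6 (helix 1) and 8 base pairs between bases 56 to 63 of U4 and 49 to 56 of U6 (helix 2). Capitals in SNORD94, annotated at chr6:71832551-71832687 on the minus strand, mark the 9 nt complementary to bases 60 to 68 of U6. Capitals in Snord67, annotated at chr2:91436227-91436337 on the plus strand, mark the 10 nt complementary to bases 56 to 65 of U6, which stand directly before its CTGA box.
U4: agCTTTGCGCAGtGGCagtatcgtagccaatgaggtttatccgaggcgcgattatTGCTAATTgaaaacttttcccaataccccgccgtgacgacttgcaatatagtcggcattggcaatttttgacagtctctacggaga
SNORD94: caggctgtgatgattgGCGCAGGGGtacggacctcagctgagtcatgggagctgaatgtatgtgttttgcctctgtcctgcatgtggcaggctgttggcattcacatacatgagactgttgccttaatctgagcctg
Snord67: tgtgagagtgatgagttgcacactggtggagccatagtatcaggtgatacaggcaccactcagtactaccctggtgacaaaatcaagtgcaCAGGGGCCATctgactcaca
The U6 stretches facing the snoRNAs and facing U4 in helix 1 overlap.

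The libraries differed in depth and in how well their fragments could be placed. Where 4 values are given below without a library name, their order is ES-1, ES-2, ES indirect, MEF. After equal coordinates were counted once the libraries held 2310134, 1241787, 1655476 and 373978 read pairs, and 28.5%, 5.37%, 49.9% and 21.2% of the deposited lines repeated another. Median fragment lengths of RNA1 and RNA2 were 48 and 56 nt in ES-1 and 28 and 34 nt in ES-2. They were longer in ES indirect, at 90 and 100 nt, and shortest in MEF, at 19 and 29 nt. The partner fragments of the 4 RNAs matched mm9 at their stated place in 81.7 to 88.1% of cases (ES-1), 63.0 to 68.6% (ES-2) and 73.7 to 86.5% (ES indirect), but MEF reached only 27.8 to 55.0%, so partners in MEF and, less so, in ES-2 are less certain. All 12 ES cell markers, such as Pou5f1 and Nanog, had exonic ends in each ES library, while 6 of the 12, Pou5f1 and Nanog among them, were at 0 in MEF. Of 12 fibroblast markers, 9, 7, 10 and 11 were detected, with summed levels of 3954, 2410, 1561 and 20026 ends in 1000000 exonic mRNA ends. In the ES libraries most of these ends were of Fn1 alone, with 550 of 628, 217 of 249 and 279 of 334. On the scale of the summed levels, the ES cell markers stood at 7121, 4782, 7666 and 1370. Markers of other cells (trophoblast, endothelium, blood, neurons) summed to 516, 213, 196 and 0. Between 0 and 0.794% of the read pairs of the 4 RNAs had coordinates also found in another library. Reads of 1 library are not replicates, and every interval below is a 95% interval that covers counting error only.

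U2, U4, U5 or U6 was an end of 1.17% of ES-1 read pairs (1.15 to 1.18) and 0.472% of ES-2 read pairs (0.460 to 0.485). The share was 0.727% for ES indirect (0.714 to 0.740) and 0.101% for MEF (0.0914 to 0.112). U2, the branch point RNA, was the most frequent in all 4 libraries, with 18055, 3733, 6004 and 192 read pairs. U5, which contacts the exons, had 3621, 490, 2495 and 67 read pairs. U6, the RNA of the catalytic centre, had 3041, 1155, 2345 and 48. U4, the partner that holds U6 before activation, had 2325, 494, 1628 and 72. Most of these read pairs in ES-1 and ES-2 had a ribosomal RNA at the other end, with shares of 65.3% and 61.1% against 34.4% in ES indirect and 24.6% in MEF. The ribosomal share over all read pairs of a library was not counted, so these values cannot be called particular to the 4 RNAs.

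Each RNA is encoded by several copies, and a read from near-identical copies cannot be assigned with certainty to 1 of them. The U2 copy at chr11:101507054-101507244 (191 nt, minus strand) took 35.2%, 43.8%, 29.0% and 31.4% of U2 ends, out of 51 annotated copies of which 35 had an end. The U4 copy printed above took 49.0%, 41.5%, 47.9% and 51.4%, out of 43 copies of which 23 had an end. The U5 copy at chr4:116862547-116862662 (116 nt, plus strand) took 803, 124, 540 and 6 U5 ends and the copy at chr9:65044379-65044494 (minus strand) took 515, 68, 506 and 25, and all 10 U5 copies had an end. U6 ends were spread over 397 of 936 annotated copies, and no copy took more than 6.60% in an ES library. U2 and U4 thus had the same leading locus in every library, the leading U5 locus differed in MEF, and U6 ends were spread thinly. Fragments named U2, U4, U5 or U6 matched mm9 at the stated place in 98.5 to 99.8% of cases in the ES libraries, and in MEF U4 and U6 fragments did so in 93.9% and 80.0%.

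For contacts between different RNAs, read pairs without a ribosomal or unannotated end, with different names and over 2000 bp apart were used, which numbered 239416, 142330, 196151 and 108073. The number expected from the ends is the product of the read pairs of both RNAs over 2 times this total. Every observed pair of RNAs in a library was put to a one-sided Fisher's exact test with Benjamini-Hochberg adjustment, and pairs with an adjusted p under 0.05 and at least 3 read pairs were called. Fisher's table has a null mean of 2 times this expectation, so a call needs more than 2 times the expected number. Of all observed pairs of RNAs, the share called was 1.09% (ES-1), 0.719% (ES-2), 2.54% (ES indirect), 0.842% (MEF) and 0.895% (ES-1 merged with ES-2).

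U4 and U6 were joined in ES indirect far above the expectation from their ends, and in few read pairs elsewhere. They shared 5, 2, 309 and 0 read pairs, where 2.27, 0.342, 2.81 and 0.00463 were expected. The observed number was 110 times the expected in ES indirect (98.0 to 123), with an adjusted p of 1e-300, the smallest value written, by Fisher's exact test. In ES-1 it was 2.21 times (0.717 to 5.15, adjusted exact p = 0.605), in ES-2 5.85 times (0.709 to 21.1, adjusted exact p = 0.227) and in the merged ES libraries 2.82 times (1.13 to 5.81, adjusted exact p = 0.363), and none of these was called. With RNA1 and RNA2 ends counted apart, each order was tested and only the order with the smaller p was kept. In ES-1 this was U4 as RNA1, 4 of the 5 read pairs, and it was called (11.3 times, adjusted exact p = 0.00503). The order kept in the merged libraries was also called (10.7 times, adjusted exact p = 0.00310). The intervals of ES indirect and of the ultraviolet libraries with a read pair did not overlap, a difference that was not tested. With so low an expectation, MEF could not have shown a U4–U6 excess of this size: its upper bound was 797 times.

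The 309 read pairs stood in 317 deposited lines and had 223 different pairs of places in U4 and U6. In 308 of them both fragments matched mm9 at the stated place, and each flow cell named in the read names gave an excess of its own, with 133 read pairs (121 times the expected) and 182 read pairs (103 times). U4 was RNA1 in 303 of the 309, while it was RNA1 in 34.3% of its pairs with RNAs outside this set in ES indirect. U6 was RNA1 in 42.0% of such pairs.

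U2 and U6, which pair with each other in the active spliceosome, also exceeded the expectation in ES indirect, by a smaller factor. They shared 9, 5, 44 and 0 read pairs, against 10.2, 1.78, 10.02 and 0.00842 expected. In ES indirect this was 4.39 times the expected (3.19 to 5.89, adjusted exact p = 0.000116 by Fisher's exact test), and the 44 read pairs had 34 different pairs of places. U2 was RNA1 in 27 of them. The ratio was 0.879 in ES-1 (0.402 to 1.67, adjusted exact p = 1), 2.80 in ES-2 (0.910 to 6.54, adjusted exact p = 0.373) and 1.22 in the merged ES libraries (0.666 to 2.04, adjusted exact p = 1), with no call. With ends counted apart, the order with the smaller p in ES-1 was U6 as RNA1, 5 of the 9 read pairs. That order was called (4.05 times, adjusted exact p = 0.0303), while the other order held the remaining 4. The order kept in the merged libraries was also called (5.15 times, adjusted exact p = 0.00583).

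Among the other 4 pairs within the set, the 2 that include U5 with U4 or with U6 were called, both in ES indirect. U5–U6 had 10, 0, 28 and 0 read pairs, against 2.70, 0.297, 4.31 and 0.00333 expected. In ES indirect this was 6.50 times the expected (4.32 to 9.39, adjusted exact p = 8.18e-06 by Fisher's exact test), with U6 as RNA1 in 23 of the 28 and 22 different pairs of places. The 10 in ES-1 came from 3 pairs of places and were not called (3.70 times, 1.77 to 6.80, adjusted exact p = 0.131). U4–U5 had 7 read pairs in ES-1 against 2.27 and 13 in ES indirect against 2.41, which was 5.38 times in the latter (2.87 to 9.21, adjusted exact p = 0.00836) and 3.08 times in the former (adjusted exact p = 0.299). U2–U4 and U2–U5 in ES indirect reached 18 and 23 read pairs, 3.21 times (1.90 to 5.07, adjusted exact p = 0.0622) and 2.67 times (1.69 to 4.01, adjusted exact p = 0.142) the expected, and were not called. In ES-1 they stood at 10 and 11 read pairs, 1.16 and 1.07 times the expected. In ES indirect the order of the 6 ratios thus ran from U4–U6 through U5–U6, U4–U5, U2–U6 and U2–U4 to U2–U5, and after U4–U6 the interval of each overlapped that of its neighbour. Of the 6 possible pairs in the set, 4 were called in ES indirect, beside the 2.54% called over all observed pairs.

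**Figure D1:**
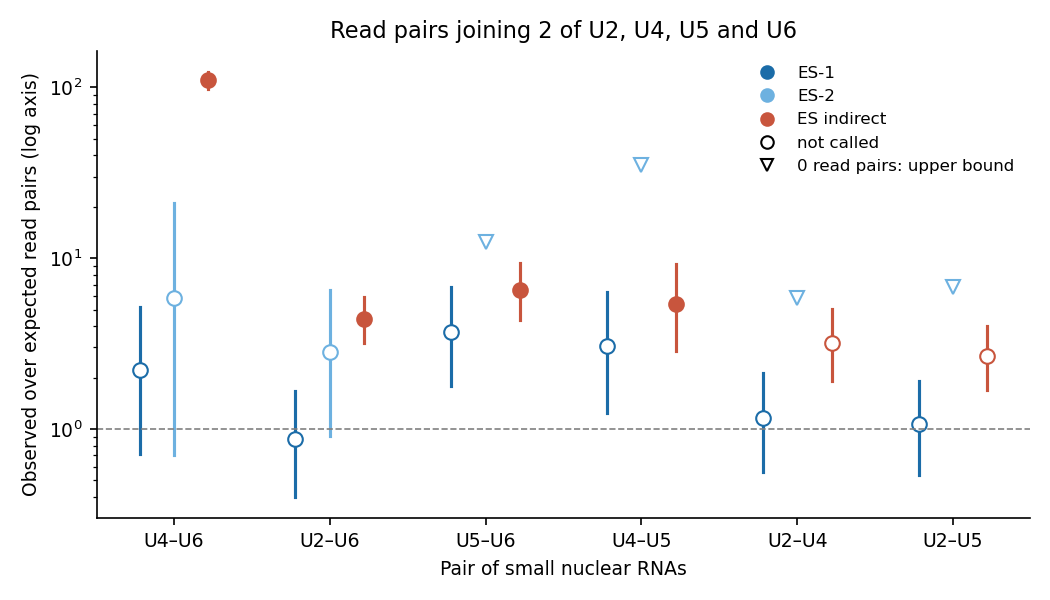
Read pairs joining 2 different RNAs among U2, U4, U5 and U6, as observed over expected on a log axis for each of the 6 pairs. Points are libraries with 95% Poisson intervals, filled where the pair was called, and open triangles are upper bounds where no read pair was found. U4–U6 in ES indirect (110) stands apart from all other points with a read pair count above 3.

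Across all their between-RNA read pairs in ES indirect, each of the 4 RNAs had a larger share of snRNA partners, the set included, than RNAs in general. The share of partner ends that were snRNAs there was 19.5% for U2, 47.1% for U4, 9.13% for U5 and 31.4% for U6, beside 3.83% over all RNAs. In ES-1 these shares were 8.69%, 9.74%, 5.00% and 3.87%, beside 3.46%, and in ES-2 3.01%, 1.622%, 0.621% and 1.52%, beside 1.22%. The snRNA ends of U2 included the name AC120136, whose loci are copies of U2, and without it the U2 share was 4.90%, 2.19% and 8.37% (7.34 to 9.53) in the ES libraries. U4 in ES indirect, 309 of whose 786 ends met U6, had the highest share, followed by U6 there, and in ES-1 the intervals of U4 (8.02 to 11.8), U5 (3.88 to 6.42) and U2 without AC120136 (lower bound 4.28), and in ES-2 that of U2 without it (1.44 to 3.33), also lay above the share over all RNAs.

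The U4 and U6 fragments that were joined in ES indirect covered the predicted helices more often than the same RNAs did in other pairs. Bases towards the 3′ ends of both RNAs were covered less often. Helix 1 of U4 (bases 3 to 16) lay in 49.0% of U4 fragments joined to U6 (43.4 to 54.6) and in 14.7% of those joined to other RNAs (11.6 to 18.4). Fragments that began at base 1 of U4 were 48.7% and 14.7% of the same groups. Helix 2 of U4 (bases 56 to 63) lay in 49.7% (44.1 to 55.3) and 35.7% (31.2 to 40.4). In U6, bases 59 to 72 of helix 1 were covered by 94.5% of fragments joined to U4 (91.4 to 96.5) and by 77.6% of the others (74.7 to 80.3), and bases 49 to 56 of helix 2 by 97.1% (94.6 to 98.5) and 77.9% (75.05 to 80.6). None of these 4 pairs of intervals overlapped. The excess was not particular to the helices. Base 37 of U4, between them, lay in 58.6% and 29.2% of fragments, and base 30 of U6, before both, in 81.9% and 64.2%. Towards the 3′ ends it was reversed, with base 118 of U4 in 26.0% and 70.4%, and base 107 of U6 in 36.2% and 48.2%. Since U4 was mostly RNA1 in one group and mostly RNA2 in the other, the side of the linker moved with this difference, and its part was not tested.

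**Figure D2:**
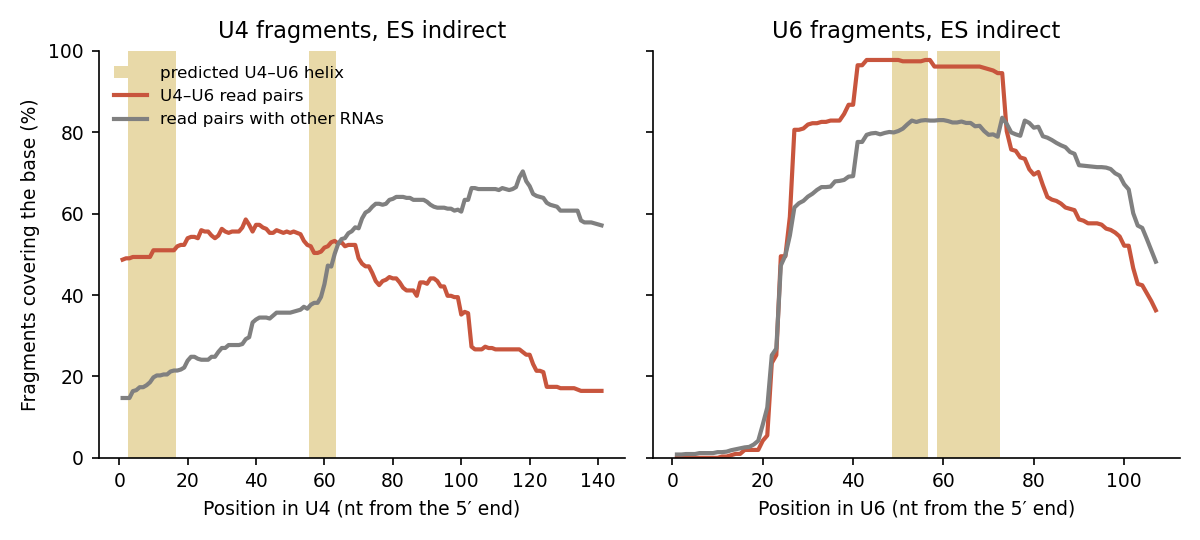
Share of fragments (%) covering each base of U4 (left) and U6 (right) in ES indirect, counted in nt from the 5′ end, for read pairs joining U4 and U6 and for read pairs of the same RNA with other RNAs. Shaded bands are the 2 predicted helices. In U4 the joined fragments cover bases 3 to 16 in 49.0% of cases against 14.7%, and base 118 in 26.0% against 70.4%.

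The linker joined the end of a U4 fragment to the start of a U6 fragment. In the 297 read pairs with U4 as RNA1 in which neither fragment had the full read length, U4 ended at base 93 in the median (quartiles 63 and 117) and U6 began at base 26 (quartiles 23 and 27). The U6 fragment began before both helices in 293 of them. A start near base 26 was not particular to the pairs with U4, since U6 fragments also began at a median of base 26 in pairs with other RNAs and base 27 in pairs with U2. U4 ended after both helices in 223 and between them in 67. The ends of U4 were spread widely and the starts of U6 narrowly, and no single combination of bases held more than 17 read pairs.

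**Figure D3:**
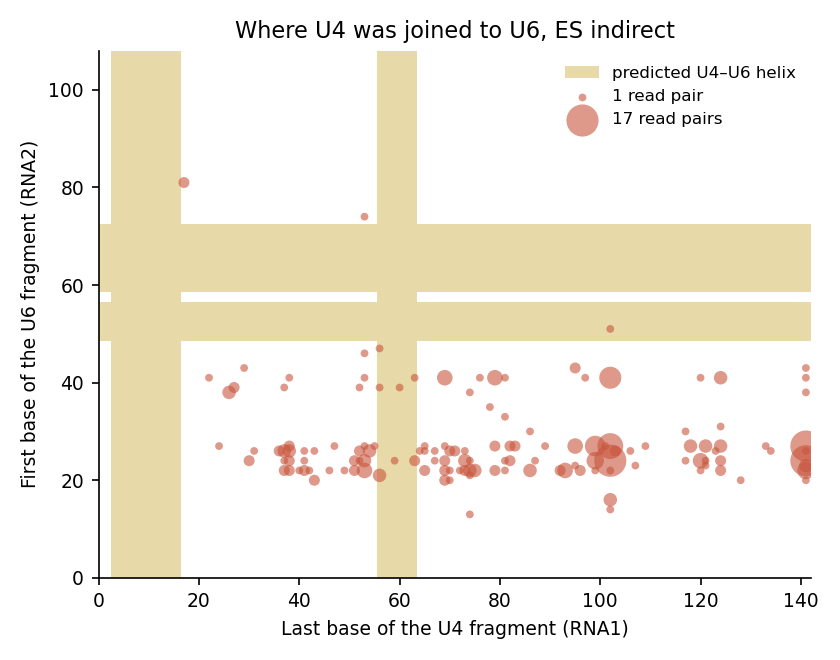
Last base of the U4 fragment (RNA1, horizontal) against first base of the U6 fragment (RNA2, vertical) for the 297 U4–U6 read pairs of ES indirect below the full read length. Point area is the number of read pairs, at most 17, and shaded bands are the predicted helices in both RNAs. Starts in U6 lie in a narrow band around base 26, while ends in U4 are spread over its length.

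Over all partners, the set itself included, calls were few. In the order of the 3 ES libraries, U2 was called with 44, 8 and 21 RNAs, of 1412, 559 and 1466 observed. These include, in each ES library, the name AC120136, whose loci are copies of U2 and so no other RNA. U4 was called with 5, 1 and 6 of 407, 156 and 334, and U5 with 6, 1 and 9 of 513, 135 and 808. U6 was called with 29, 3 and 24 of 389, 343 and 690, and its shares of 7.46%, 0.875% and 3.48% stood beside 1.09%, 0.719% and 2.54% called over all pairs. The shares of U2 were 3.12%, 1.43% and 1.43%, those of U4 1.23%, 0.641% and 1.80%, and those of U5 1.17%, 0.741% and 1.11%. As a ratio to the background, U6 and U2 in ES-1 and U2 in ES-2 thus stood highest, and in ES indirect U2, U4 and U5 were below the background. In MEF none of the 69, 37, 31 and 19 observed partners of U2, U4, U5 and U6 was called. Without the minimum of 3 read pairs 22, 11, 12 and 9 would have been, with no share over all pairs counted. Of the 84322 pairs observed in MEF, 46002 had an unadjusted p under 0.05 by Fisher's exact test. The numbers without a minimum therefore cannot be read as an excess. When fragments with equal places in the U2, U4, U5 or U6 sequence were counted once, the numbers called fell to 13, 5, 2 and 2 in ES-1, to 6, 1, 1 and 3 in ES-2 and to 13, 5, 7 and 6 in ES indirect, so most of the calls of U2 and U6 in ES-1 rested on read pairs that repeated the same place, and their shares there became 0.921% and 0.514%.

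The partners of U6 that were called in both ultraviolet ES libraries were the C/D snoRNAs SNORD94 and Snord67, whose sequences are printed above and which are known guides for methylation of U6. SNORD94 shared 38, 40, 33 and 0 read pairs with U6, where 1.53, 0.625 and 0.283 were expected in the ES libraries. Its adjusted p by Fisher's exact test was 1.11e-25, 1.02e-42 and 1.90e-46 in the ES libraries. These read pairs had 20, 36 and 24 different places and were called in all 3 ES libraries when equal places were counted once. The SNORD94 fragment covered its complementary run in 31 of 38, 17 of 40 and 24 of 33 read pairs, whereas the U6 fragment covered bases 60 to 68 in 36.8%, 77.5% and 54.5%, beside 81.2%, 83.4% and 80.5% of U6 fragments in pairs with other RNAs.

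Snord67 shared 6, 6 and 1 read pairs with U6 in the ES libraries. The expected numbers in ES-1 and ES-2 were 0.897 and 0.196, with adjusted exact p = 0.0486 and 0.00122 by Fisher's exact test. The 6 in ES-1 had 2 different places and were no longer called when these were counted once (adjusted exact p = 0.471), while the 6 in ES-2 had 6 places (adjusted exact p = 0.000995). In all 12 read pairs of ES-1 and ES-2 the Snord67 fragment covered the run before its CTGA box and the U6 fragment covered the facing bases 56 to 65, which 80.9% (ES-1) and 86.7% (ES-2) of U6 fragments in pairs with other RNAs also covered. The 1 read pair of ES indirect covered neither. SNORD94 was thus called in all 3 ES libraries, and Snord67 under both ways of counting in ES-2 only.

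Other snoRNAs were called with U6 mostly in ES-1 and with few places. Snora64 and SNORA46, both of the H/ACA class, had 30 read pairs in 12 places and 17 in 5 places in ES-1, and neither was called with places counted once. Snord104, a C/D snoRNA, had 15 read pairs in 6 places against 1.33 expected (adjusted exact p = 3.35e-05, and 0.0464 with places counted once). In ES indirect Snord23 had 5 read pairs from 2 places. For U2, the H/ACA snoRNA SNORA9 was called in both ultraviolet ES libraries, with 118 read pairs against 43.6 expected in ES-1 (adjusted exact p = 0.0113), 17 against 4.64 in ES-2 (adjusted exact p = 0.0447) and 0 in ES indirect. With places counted once SNORA9 missed the threshold in each of them (88 places, adjusted exact p = 0.154, and 16 places, adjusted exact p = 0.0592) and passed in the merged libraries (104 places, adjusted exact p = 0.0134). Its 118 read pairs in ES-1 were 2.70 times the expected, little above the 2 times at which the test is centred. For U5, SNORA73 was called in the merged libraries (23 read pairs against 6.39, adjusted exact p = 0.0358) but not with places counted once. As a class, snoRNAs made up 45.5% of the partner ends of U2, 50.4% of U4, 53.2% of U5 and 60.2% of U6 in ES-1, beside 53.5% over all RNAs.

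Cajal body RNAs, the guides that modify spliceosomal RNAs outside the nucleolus, were found with U2 as 9, 4 and 8 different RNAs in the ES libraries, and 2 of the 8 were called in ES indirect, beside 2.54% over all pairs there, and 0 in ES-1 and ES-2. None was called with U4, U5 or U6 when equal coordinates were counted once. Scarna6 had 5 read pairs with U5 in the merged ES libraries against 0.663 expected (adjusted exact p = 0.0518 by Fisher's exact test). In ES indirect Scarna2 had 6 read pairs with U2 against 0.364 expected (adjusted exact p = 0.00242), and Scarna8 had 4 against 0.121 (adjusted exact p = 0.00237). Scarna2 also had 6 with U2 in ES-1, where 5.71 were expected.

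Of the other snRNAs, U1 was joined to U2 at 2.45, 2.69 and 2.17 times the expected in the ES libraries, and to U4 above the expected in ES-1. U1–U2 had 162 read pairs in ES-1 against 66.1 expected (adjusted exact p = 0.0340), 12 in ES-2 against 4.45 (adjusted exact p = 0.268) and 114 in ES indirect against 52.4 (adjusted exact p = 0.239). U1–U4 had 66 in ES-1 against 14.6 (adjusted exact p = 7.84e-07), all from different places, but 1 in ES-2 against 0.854 and 15 in ES indirect against 14.7. U1–U4 was therefore called in ES-1 and near expectation in ES indirect, a difference that was not tested. Of the minor spliceosome, U12, the counterpart of U2, had 5 read pairs with U5 in ES indirect against 0.774 (adjusted exact p = 0.0403), and U4atac, the counterpart of U4, had 4 with U2 in ES-1 against 0.315 (adjusted exact p = 0.0254). Neither of the last 2 was called with places counted once.

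An snRNA with a clone name was a set of U2 copies, and another resembled U4. AC120136, whose loci are 99.0 to 100% identical to U2, shared 172, 8 and 340 read pairs with U2 in the ES libraries. Both ends of these read pairs were U2 sequence, with no other RNA, and whether they are ligations was not tested. AC162464, annotated at chr6:48239227-48239426 and 75% identical to U4, shared 10 read pairs with U6 in ES indirect against 0.0644 expected (adjusted exact p = 4.10e-15), from 10 places, and 4 with U4 against 0.0361 (adjusted exact p = 5.13e-05).

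Messenger RNAs were called on few read pairs. U2 was called in ES-1 with Ogt, which encodes the O-GlcNAc transferase, with 8 read pairs against 0.207 expected (adjusted exact p = 1.82e-06), from 3 places. Zbtb40, a zinc finger gene, was called in ES-1 and in ES-2 with 5 read pairs each, but 0 of its fragments matched mm9 at the stated place. In ES indirect U2 was called with Zdhhc3, which encodes a palmitoyltransferase (8 read pairs against 1.05, from 3 places in its 3′ UTR, adjusted exact p = 0.00817), Tcf20, a transcriptional coregulator gene (7 against 0.614, adjusted exact p = 0.00398), and Mrps5, of the mitochondrial ribosome (5 from 1 place). U4 was called with Dnahc7b, a dynein heavy chain gene, with 11 read pairs in ES indirect against 1.65 (adjusted exact p = 0.00577). Dnahc7b had 13 with U4 in ES-1 against 15.3, and was not called there.

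For U5, the mRNAs called in ES indirect included Chrnb2, a nicotinic receptor subunit gene (8 read pairs against 1.05, adjusted exact p = 0.00832, 4 of them matching mm9), Fam129a (7 against 0.654, adjusted exact p = 0.00484) and Gpr1 (4 against 0.0399, adjusted exact p = 6.44e-05). In ES-1, Cep350, Ddah2, Gsta4 and Slc5a3 were called with U5 on 3 read pairs each, in every case from 1 place. For U6 in ES indirect, Sfswap, a gene for a splicing regulator, had 5 read pairs against 0.122 (adjusted exact p = 0.000248), from 3 places (adjusted exact p = 0.00715 with places counted once). Cbfb and 6720401G13Rik had 4 and 5 read pairs from 1 place each. Of the 42 mRNAs that encode proteins of the U2, U4, U5 and U6 particles, 40 had an end in the data. At most 3 of them were observed with any of the 4 RNAs in a library, none with the 3 read pairs that a call needs, so the 0 calls, beside 1.09%, 0.719% and 2.54% over all pairs in the ES libraries, carry no information.

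Since the 4 RNAs act on introns, the mRNA ends they were joined to were sorted into introns and exons. In ES-1, 1143 of 2221 such ends were intronic, 51.5% (49.4 to 53.5), beside 53.5% for the mRNA partners of all other RNAs. In ES-2 the share was 59.6% (56.3 to 62.8, 510 of 856) beside 58.0%, and in ES indirect 74.4% (72.9 to 75.8, 2584 of 3472) beside 76.8%. In MEF it was 92.5% (85.3 to 96.3, 86 of 93) beside 81.2%, on fragments that mostly did not match the genome. The share of other RNAs thus lay inside the interval in ES-2, at its upper edge in ES-1, above it in ES indirect and below it in MEF.

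By RNA, the intronic shares in ES-1 were 49.6% for U2, 65.3% for U4, 55.4% for U5 and 45.1% for U6. In ES indirect they were 75.1%, 75.3%, 74.7% and 71.9%, and in ES-2 54.6%, 63.6%, 65.8% and 67.0%. The order of the RNAs differed between libraries. In ES-1 the gene with most intronic ends over all other RNAs was Dnahc7b, which held 124 intronic ends of the 4 RNAs. Without it the share was 48.6% over the 4 RNAs and 50.8% over other RNAs. In ES indirect this gene was Agap1, with 119 ends of the 4 RNAs, and the shares without it were 73.5% and 76.4%. None of these ends was counted on the strand of the gene, since sense intronic ends stayed at 542 without Dnahc7b and at 1855 without Agap1. Intronic ends lay on the strand of the gene in 47.9% (ES-1), 45.3% (ES-2) and 72.9% (ES indirect) of cases, beside 48.7%, 50.4% and 71.1% for other RNAs, and exonic ends in 85.8%, 66.1% and 90.1%. Without the leading gene of each library (Fry in ES-2), the intronic sense shares were 53.8%, 43.4% and 76.5%, beside 54.5%, 49.5% and 72.6% for other RNAs. In ES-1 and ES-2 the intronic ends were therefore about as often antisense as sense, and those of ES indirect were mostly sense.

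Sense intronic ends near a splice site were then counted at distinct places, within 50 nt. In ES indirect, 37 of the 1632 places joined to the 4 RNAs lay near a 5′ splice site, 2.27% (1.65 to 3.11), and 31 near a 3′ splice site, 1.90% (1.34 to 2.68). For all other RNAs these shares were 0.993% (0.934 to 1.06) and 0.718% (0.668 to 0.772), below both intervals. In ES-1 the share near a 5′ splice site was 3.16% for the 4 RNAs (1.93 to 5.16) beside 2.70%, and in ES-2 3.48% (1.70 to 7.01) beside 4.09%, inside the intervals. Near a 5′ splice site the share of other RNAs thus varied more between libraries than that of the 4 RNAs. U4 in ES-1 had 5 of 67 places near a 5′ splice site, 7.46% (3.23 to 16.3), of which 1 matched the genome. Near a 3′ splice site the share for the 4 RNAs together was 4.01% (2.58 to 6.18) beside 2.06% in ES-1 and 2.49% (1.07 to 5.69) beside 1.68% in ES-2. In ES indirect U2, whose branch point site lies near the 3′ splice site, had 20 of 781 places there, 2.56% (1.66 to 3.92), and 19 near the 5′ splice site, 2.43% (1.56 to 3.77). U6, which pairs with the 5′ splice site, had 10 of 334 near it, 2.99% (1.63 to 5.42), and 7 near the 3′ splice site. U5 had 7 and 2 of 418, and U4 had 1 and 2 of 142, by 5′ and 3′ splice site. U1, which recognises the 5′ splice site first, had 78 of 2449 near it, 3.18% (2.56 to 3.96), and 1.35% near the 3′ splice site.

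In ES-1, U2 had 16 of 299 places near a 3′ splice site, 5.35% (3.32 to 8.51), in 14 genes, beside 2.06% for all other RNAs (1.89 to 2.25), and 13 of the 16 matched the genome. It had 4 near a 5′ splice site, 1.34%, beside 2.70%. In ES-2, U2 had 3 of 97 places near each kind of site, and in MEF no RNA of the set had more than 1. The share of U2 places near the 3′ splice site thus had intervals above the share of other RNAs in ES-1 and in ES indirect, and could not be read in the shallower libraries. In ES indirect this was particular neither to U2 nor to the 3′ splice site, since U2 near the 5′ splice site, and U6 (1.02 to 4.26) and U1 (0.961 to 1.89) near the 3′ splice site, also lay above the share of other RNAs. The difference was not tested across replicates.

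**Figure D4:**
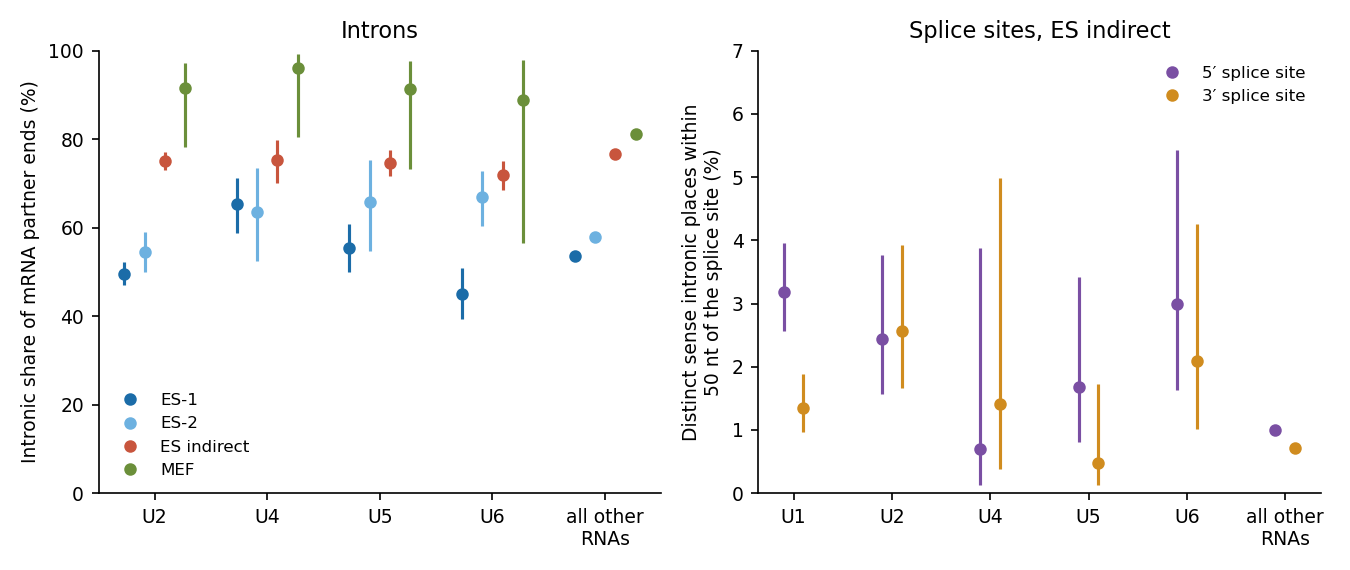
Left, share (%) of intronic ends among the mRNA partner ends of U2, U4, U5 and U6 and of all other RNAs, by library, with 95% Wilson intervals. Right, share (%) of distinct sense intronic places within 50 nt of a 5′ or 3′ splice site in ES indirect for the 4 RNAs, U1 and all other RNAs, with 95% Wilson intervals. On the right, U2 and U6 lie above the 0.993% and 0.718% of all other RNAs.

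Self pairs, in which both ends carried the same name, cannot tell 1 molecule cut and rejoined from 2 molecules of the same RNA. U2 had 455, 52, 637 and 6 self pairs. As a share of its read pairs without a ribosomal or unannotated partner this was 9.54%, 5.11% and 18.5% (17.2 to 19.8) in the ES libraries. With the U2 copies named AC120136 counted as U2, it was 13.1%, 5.90% and 28.4% (26.9 to 29.9). U4 had 27, 3, 253 and 1, or 2.75%, 1.60% and 24.3% (21.8 to 27.0) in the ES libraries. U5 had 56, 2, 41 and 1, or 4.68%, 1.23% and 3.29%, and U6 had 12, 4, 51 and 13, or 1.04%, 0.752% and 3.44%. U2 and U4 thus had high self shares in ES indirect and U5 and U6 did not, and none of the 13 U6 self pairs of MEF, 39.4% of its 33 read pairs, could be placed in the U6 sequence.

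Many self pairs had a fragment of exactly the full read length, 90 nt for RNA1 or 100 nt for RNA2. In ES indirect these were 370 of the 637 for U2, 160 of the 253 for U4, 21 of the 41 for U5 and 7 of the 51 for U6, and in ES-1 172, 20, 47 and 0. Over all between-RNA read pairs, 27.0% had such a fragment in ES indirect and 10.9% in ES-1, while 1 of the 309 U4–U6 read pairs did. The most frequent U2 self pair of ES indirect joined bases 1 to 90 with bases 89 to 187 (48 read pairs), followed by 1 to 90 with 88 to 187 (41). In ES-1 it was 2 to 91 with 89 to 187 (28). The 629 placed U2 self pairs of ES indirect had 324 different pairs of places, and the 450 of ES-1 had 268. The 252 placed U4 self pairs of ES indirect had 167. The shares and intervals above count repeated places more than once. In ES indirect the fragments of 451 of the 629 placed U2 self pairs met end to end within 5 bases, with RNA1 nearer the 5′ end in 391, and in ES-1 166 of 450 did. Fragments that meet end to end were thus most of the U2 self pairs of ES indirect, and whether they are ligations was not tested.

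Among the self pairs without such a fragment, the order of the fragments differed between libraries. In ES-1, 233 of the 279 placed U2 self pairs had RNA1 nearer the 3′ end than RNA2, 10 had it nearer the 5′ end and 36 overlapped. In ES indirect the numbers for U2 were 94, 99 and 67 of 260. For U4 in ES indirect, 81 of 92 had RNA1 nearer the 5′ end, 3 nearer the 3′ end and 8 overlapped, and the most frequent joined bases 1 to 33 with 101 to 141 (11 read pairs). Another frequent pair joined bases 1 to 102 with 103 to 141 (9 read pairs), which are continuous in U4. Of the 252 placed U4 self pairs of ES indirect, 57 met end to end within 5 bases, with RNA1 nearer the 5′ end in 55. U4 self pairs below the read length in ES indirect thus ran mostly 5′ end first, and ES-1, with 4 and 3, was too thin to compare. Whether the U4 self pairs that met end to end are ligations was not tested, so this order cannot be read as an order of ligation.

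**Figure D5:**
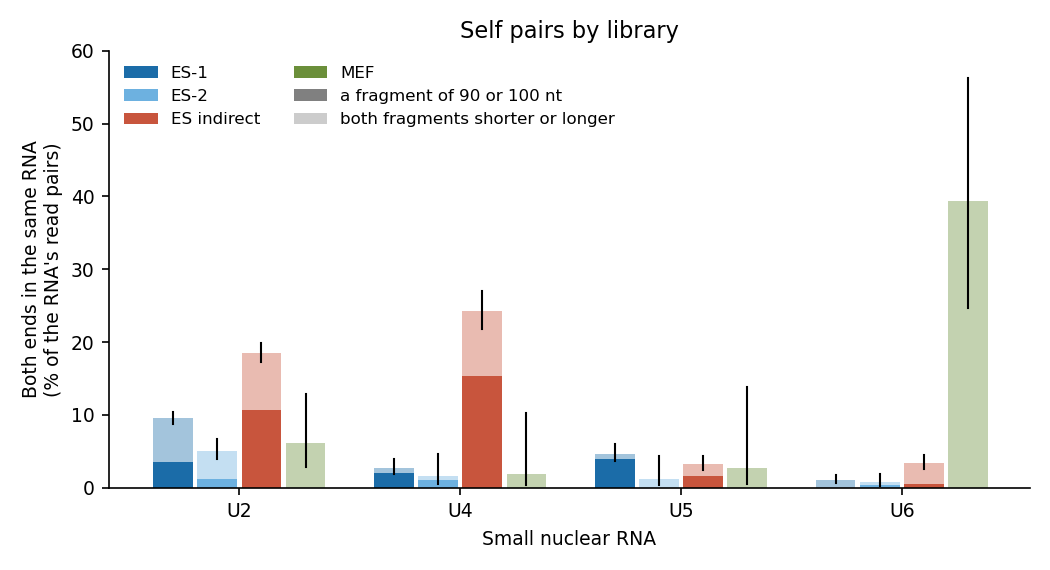
Self pairs as a share (%) of the read pairs of U2, U4, U5 and U6 without a ribosomal or unannotated partner, by library, with 95% Wilson intervals. The full colour is the part with a fragment of 90 or 100 nt, the full read length. U2 (18.5%) and U4 (24.3%) of ES indirect are higher than in ES-1 and ES-2, and in ES indirect most of that is at the full read length.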

How the data were processed

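The deposited files list, per the labels and methods, read pairs in which both fragments mapped uniquely to mm9. The authors counted pairs with the same place and random barcode once, split samples by barcode, located the linker, and annotated each fragment with an RNA type and name. The submitters' processing notes name TopHat2 2.1.1, mm9 and NCBIM37. The files hold other values than a unit of expression: coordinates, sequences and names, from which lines were counted here.

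Equal coordinates were counted once, and both fragments were compared with mm9 base by base at the stated place, allowing 15% mismatches. Fragments of U2, U4, U5 and U6 were placed in 1 copy of each RNA with edlib 1.3.9.post1. Fisher's exact tests ran over all observed pairs of each library, and since pairs with 0 read pairs enter no adjustment, calls on few read pairs are less certain than their adjusted p states. An end was intronic if the region deposited with it was an intron, and the version of that annotation is not stated. Splice sites, gene strands and the copies of the RNAs came from the GENCODE vM1 annotation of mm9. Python 3.11.15, NumPy 2.4.6, pandas 2.3.3, SciPy 1.17.1, pysam 0.24.0, SAMtools 1.23.1, Matplotlib 3.10.9 and RNAcofold 2.7.2 were used. The test of pairs of RNAs was tried on simulated read pairs, while the intronic, splice site, coverage and self pair counts were not. Intervals are Wilson for shares and exact Poisson for ratios.

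ES-1 and ES-2 are 2 replicates, also tested merged. Brain was not analysed here, and the sequence of U6 is not reported here. The set, the lists and the tests were chosen with earlier results of these data known. Partners named are those called in each of the replicates, then in the merged libraries, ES indirect and MEF by read pairs, at most 5 for each RNA and library, from which examples are given.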

Additional observations from a re-analysis of the deposited data

How the results depend on the processing

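Of 262 alternative values, 199 were counted as unchanged. For U4–U6 (48 of them) and U2–U6 (44) that meant the same direction and side of the threshold. In each of these, 10 were MEF values with 0 read pairs throughout, which carry no information on stability. Calls among the other pairs of the set were also 0 under all 10 alternatives in ES-2 and in MEF. For numbers of calls it meant within a fixed factor of the main number. For shares it meant within the spread of the ES pair or, in ES indirect and MEF, inside the main interval. In ES indirect U4–U6 was called under all 10 alternatives (82.8 to 172 times the expected) and U2–U6 under all 10 (3.76 to 6.25). The counting of RNA1 and RNA2 ends apart, the counting of equal places once, the omission of 90 and 100 nt fragments, the omission of the leading intronic gene and the joining of AC120136 with U2 were chosen as alternatives after seeing the data. Counting RNA1 and RNA2 ends apart gave values for the order with the smaller p alone. It brought calls in ES-1 for U4–U6 (11.3 times) and U2–U6 (4.05), and in the merged libraries for U4–U6 (10.7) and U2–U6 (5.15). It also called 2, 4 and 2 of the other pairs of the set in ES-1, ES indirect and the merged libraries, against 0, 2 and 0. ES indirect also had 4 with fragments of at least 20 nt and with both fragments at their stated place. The uncalled U2–U6 ratio crossed 1 in ES-1 with equal places counted once (1.02) and on flow cell A (1.44), and in the merged libraries with ribosomal and unannotated ends kept (0.889). Leaving out 1 ES replicate gave 2.21 to 5.85 for U4–U6 and 0.879 (ES-1 alone) to 2.80 for U2–U6.

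Partners called, against 84 (ES-1), 13 (ES-2), 56 (ES indirect), 0 (MEF) and 79 (merged), were 317, 23, 188 and 306 (merged) with every line counted, 162, 26, 104, 2 and 165 with sides apart, and 194, 169, 329, 54 and 201 without a minimum. They were 30, 7, 18 and 33 (merged) with a minimum of 5, and 22, 27 and 25 in ES-1, ES indirect and merged with equal places once. ES-2 had 7 with fragments at their stated place and 7 with ribosomal ends kept, MEF 1 with coordinates within 5 bases joined, and the merged libraries 13 (ES-2 alone) to 84 (ES-1 alone). The share of all observed pairs called was not counted without a minimum, so those numbers cannot be read as an excess.

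The share of read pairs with 1 of the 4 RNAs moved in ES indirect to 0.501% (every line), 0.712% (fragments of at least 20 nt without linker), 0.586% and 0.747% (flow cells A and B), and in MEF to 0.0811%, 0.204%, 0.126% and 0.0444%, and 0.199% at the stated place. The intronic share was 39.8% in ES-1 and 70.4% in ES indirect at the stated place, and 45.7%, 52.2% and 69.1% in ES-1, ES-2 and ES indirect by fragment length. The self share over the 4 RNAs (6.84%, 3.22%, 14.5% and 9.68%) was 1.76% in ES-1, 4.99% in ES indirect and 3.23% in MEF within 2000 bp. In ES indirect it was 32.3% with every line, 17.3% at the stated place, 17.8% by fragment length, 7.56% without 90 or 100 nt fragments, 9.50% farther apart and 19.5% with AC120136 joined to U2. In MEF it was 22.5% and 24.4% at the stated place and by fragment length. The causes were not tested.

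No paired analysis was possible because the numbered libraries used, ES-1 and ES-2, are replicates of the same group and no other group analysed shares their numbers. Treating names as separate identifiers could not be run, since the files hold the bare names. Depth limited MEF most, where each of the 4 RNAs had at most 91 between-RNA read pairs.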
